A study of Mus musculus with 8 samples.

Results

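Accessibility at 40 genes that mark the stromal, mural and endothelial cells of the bone marrow was examined in GFP-positive leukaemia cells sorted from leukaemic mice. The list held 20 genes of mesenchymal stroma and mural cells and 20 of endothelium, and 38 of the 40 symbols matched 1 of the 21887 protein-coding genes of the annotation. The symbols Thy1l and Erg1 matched no gene and were not replaced. A peak was counted for a gene when its summit lay in the gene body or within 10 kb of it, and 54 of the 32730 merged regions of open chromatin held such a peak in at least 1 library, at 25 of the 38 genes.

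Open chromatin was mapped by ATAC-seq, an assay that tags exposed DNA with adapters carried by a transposase, and 8 libraries were made, 2 for each of 0, 6, 12 and 24 hours. In all 4 groups the bone marrow cells carried MLL-AF9, a fusion oncogene that drives acute myeloid leukaemia, together with TetO-Klf4, a construct that expresses the zinc-finger factor Klf4 under doxycycline, and the labels name C57BL/7 in the field for the cell line. The labels do not state the age of the mice, which transactivator drives the construct, whether the 0h cells had met doxycycline, or whether the 2 libraries of a time came from separate mice. The spread between the libraries of a time may therefore be technical.

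Stromal cells of the marrow hold blood stem cells in place and feed them, through the chemokine Cxcl12, the cytokine Kitl and a collagen-rich matrix, and endothelial cells line the sinusoids and arterioles through which blood cells pass. Peaks at their genes serve here as a gauge of background in a library of sorted leukaemia cells. In a bulk library, few cells with a fully open site and many cells with a slightly open one cannot be told apart. Several of the listed endothelial genes, such as Pecam1, Egfl7, Tek and Esam, are also known from blood stem cells, platelets or macrophages.

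Peak lists held between 14826 and 21903 peaks on the main chromosomes. As an index of depth, the lowest local background of a list was divided by its smallest peak width. It was lowest for the second 0h library, with 1.5 tags per kb, and highest for the first, with 2.67, and the other 6 lay between 2.23 and 2.63. A tag is 1 read or fragment as the peak caller piled it up, and the weakest peak of a list had 4 tags at its summit in the second 0h library and 5 in each of the others. The second 0h library is thus the shallowest, and absence of a peak means least there. The Klf4 gene had a summit in its body or flanks in all 8 libraries. Of 20 genes chosen to define the leukaemic cells, 13 had a peak in all 8 libraries, among them Ptprc (CD45, the surface phosphatase of blood cells), Spi1, Cebpa, Myb, Meis1 and Hoxa9, and 20 had one in at least 1 library.

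The start regions below carry the contrast between a niche gene with a peak over its start, niche genes without one, and neighbours whose starts had the peak. Each line gives the 250 bases before a RefSeq transcript start (GRCm38.p6, which shares its coordinates with mm10), 5′ to 3′ on the strand of the gene, with capitals marking the CACCC motif or its reverse complement GGGTG, the core bound by KLF factors. Egfl7 (chr2:26586386-26586635, plus strand, the start farthest downstream of 3) is the only listed start with such a peak in all 8 libraries. Flt1 (chr5:147726012-147726261, minus strand) and Flt4 (chr11:49609429-49609678, plus strand) had such a peak in 3 and 2 libraries. The Flt1 peak of the first 24h library (chr5:147725774-147725972) lay wholly past the start, outside the printed bases. So did the Flt4 peak of the second 12h library. Kdr (chr5:75978456-75978705, minus strand) and Col1a2 (chr6:4505368-4505617, plus strand) had none in any. Rnf141 (chr7:110844382-110844631, minus strand) and Gtpbp3 (chr8:71488478-71488727, plus strand) are neighbours of Lyve1 and Plvap whose starts had a peak in 8 and 7 libraries.
Egfl7: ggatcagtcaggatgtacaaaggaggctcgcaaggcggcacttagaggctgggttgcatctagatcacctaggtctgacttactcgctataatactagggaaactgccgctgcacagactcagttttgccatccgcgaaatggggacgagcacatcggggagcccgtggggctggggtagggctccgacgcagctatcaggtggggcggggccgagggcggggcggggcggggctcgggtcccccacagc
Flt1: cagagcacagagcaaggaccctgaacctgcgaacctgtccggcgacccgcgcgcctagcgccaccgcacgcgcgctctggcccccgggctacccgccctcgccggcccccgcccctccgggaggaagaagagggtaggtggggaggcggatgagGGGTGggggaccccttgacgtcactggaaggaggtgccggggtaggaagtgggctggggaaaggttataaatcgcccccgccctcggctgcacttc
Flt4: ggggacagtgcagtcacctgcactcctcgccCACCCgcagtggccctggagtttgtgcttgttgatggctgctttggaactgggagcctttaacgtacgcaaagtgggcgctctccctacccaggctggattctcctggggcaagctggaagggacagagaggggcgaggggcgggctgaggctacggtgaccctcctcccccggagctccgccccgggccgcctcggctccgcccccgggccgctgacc
Kdr: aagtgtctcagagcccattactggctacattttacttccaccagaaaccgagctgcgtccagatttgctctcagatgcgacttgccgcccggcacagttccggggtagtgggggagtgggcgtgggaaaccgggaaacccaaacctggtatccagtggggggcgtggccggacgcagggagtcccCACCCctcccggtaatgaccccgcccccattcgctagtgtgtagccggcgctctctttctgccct
Col1a2: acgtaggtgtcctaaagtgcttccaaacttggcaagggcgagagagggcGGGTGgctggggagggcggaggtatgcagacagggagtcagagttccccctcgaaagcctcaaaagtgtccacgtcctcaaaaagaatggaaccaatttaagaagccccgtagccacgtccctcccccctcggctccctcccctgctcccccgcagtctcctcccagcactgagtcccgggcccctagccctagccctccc
Rnf141: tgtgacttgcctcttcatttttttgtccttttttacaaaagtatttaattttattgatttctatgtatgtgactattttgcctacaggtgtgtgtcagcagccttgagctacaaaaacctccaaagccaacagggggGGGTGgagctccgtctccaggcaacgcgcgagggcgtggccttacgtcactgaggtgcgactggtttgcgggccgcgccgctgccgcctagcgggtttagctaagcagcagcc
Gtpbp3: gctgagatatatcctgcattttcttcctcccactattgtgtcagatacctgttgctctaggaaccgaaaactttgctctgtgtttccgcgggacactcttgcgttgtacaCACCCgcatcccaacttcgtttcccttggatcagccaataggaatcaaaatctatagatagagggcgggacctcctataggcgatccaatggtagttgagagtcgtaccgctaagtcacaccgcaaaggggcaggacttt

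GC content was 63.2% at Egfl7, 70.4% at Flt1 and 68.4% at Flt4, and 61.6% and 62.0% at Kdr and Col1a2, which had no peak. The neighbours Rnf141 and Gtpbp3 had less, 51.6% and 48.8%. CpG dinucleotides numbered 17 at Egfl7, 23 at Flt1, 16 at Flt4, 16 at Kdr and 11 at Col1a2. Kdr and Col1a2 were richer in GC and in CpG than the median listed start without a peak. The CACCC motif, searched on both strands, occurred 0 times before the Egfl7 start and 1 time before each of the other 6. It was present in 64.0% of the listed starts and in 52.01% of all 32851 starts of the table, counted over the same 250 bases.

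The starts of stromal and endothelial genes were mostly without a peak. The RefSeq table gives 25 starts for 22 of the 38 genes, and 3 of the 25 (12.0%) had a peak between 250 bases before and 50 after the start in at least 1 library, against 35.0% of all starts. The Egfl7 start alone, 4.0% of the 25, had one in all 8 libraries, against 22.3% of all starts. The 3 listed starts with a peak had a median GC content of 68.4% and 17 CpG dinucleotides, and the 22 without had 58.6% and 8.5. All starts without a peak had 48.4% and 3, and all starts with a peak in all 8 libraries had 62.8% and 19. The listed starts without a peak therefore lay between these groups in base composition.

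The same held over gene ends, a measure that covers all 38 genes but does not separate a start from an end. Of the 38 genes, 2 and 2 for 0h, 3 and 3 for 6h, 2 and 3 for 12h, and 2 and 1 for 24h had a peak within 1 kb of either end. Over all genes the shares were 44.4% and 37.9% for 0h, 41.4% and 42.2% for 6h, 44% and 43.2% for 12h, and 39.8% and 40.3% for 24h. In at least 1 library 7 of the 38 genes (18.4%) had such a peak, namely Col1a1, Col4a1, Flt1, Flt4, Nos3, Plvap and Sox17, and 0 had one in all 8 libraries, against 49.3% and 32.7% of all genes. Of the 20 leukaemic genes, between 6 and 12 per library had one. Of 20 genes of neurons and hepatocytes, cell types from outside the marrow, between 0 and 3 per library had one. By this measure the niche genes lay near the genes of foreign tissues and below the leukaemic genes in every library.

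**Figure D1:**
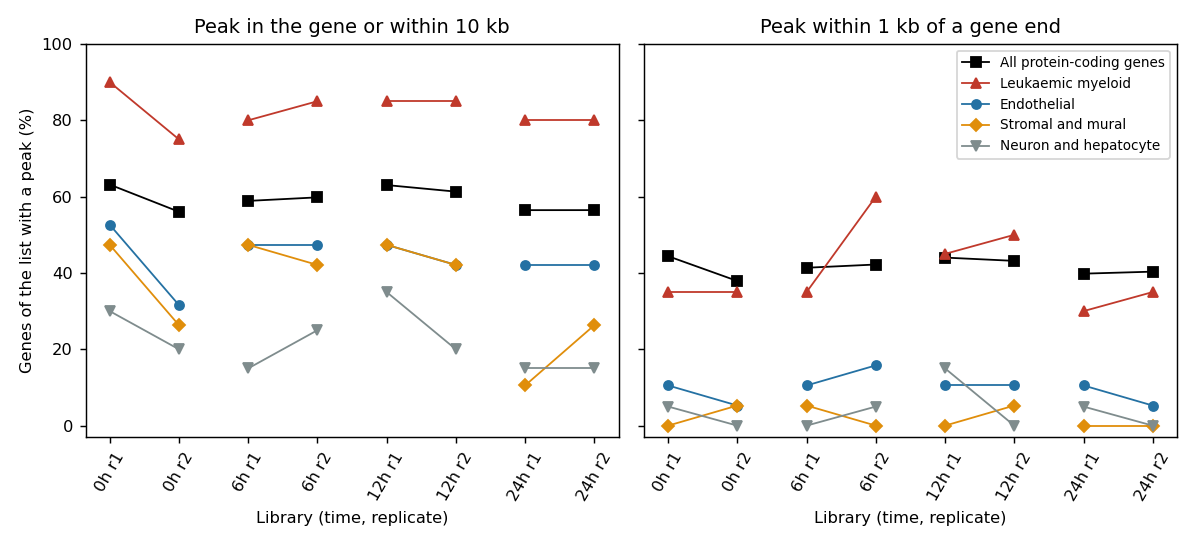
Share of each gene list (y axis, percent of genes) with a summit in the gene body or up to 10 kb away (left) and within 1 kb of a gene end (right), by library (x axis). Lines join the 2 libraries of a time. Stromal and endothelial genes lie below all protein-coding genes in every library on both sides.

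Counted over the gene and its flanks, more of the listed genes held a peak. The number was 19 and 11 of 38 for 0h, 18 and 17 for 6h, 18 and 16 for 12h, and 10 and 13 for 24h. The first 0h library and the 6h and 12h libraries lay between 16 and 19, and the second 0h library and both 24h libraries between 10 and 13. As means these are 15.0 ± 5.7 for 0h, 17.5 ± 0.71 for 6h, 17.0 ± 1.4 for 12h and 11.5 ± 2.1 for 24h (SD, n = 2), so the 0h and 24h means lay closer together than the 2 libraries of 0h. Over all genes, 63.2% and 56% for 0h, 58.9% and 59.8% for 6h, 63% and 61.3% for 12h, and 56.5% and 56.5% for 24h held a peak by the same rule, so the all-gene share was also lowest in the second 0h library and for 24h. For the listed genes the highest share was 50.0% (95% Wilson interval 34.8% to 65.2%) in the first 0h library and the lowest 26.3% (15.0% to 42.0%) in the first 24h library. With all lists cut to the 14826 strongest peaks the counts were 14 and 11 for 0h, 14 and 14 for 6h, 12 and 8 for 12h, and 10 and 13 for 24h. At equal length the lowest count was thus at 12h, and 24h no longer lay apart.

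Stromal genes had their lowest count at 24h, where the peak lists were shortest, with 15109 and 14826 peaks. Of 19 stromal and mural genes, 9 and 5 had a peak for 0h, 9 and 8 for 6h, 9 and 8 for 12h, and 2 and 5 for 24h, so the second 24h library was level with the shallow 0h library. Of 19 endothelial genes, 10 and 6 had one for 0h, 9 and 9 for 6h, 9 and 8 for 12h, and 8 and 8 for 24h. The 2 stromal genes of the first 24h library were Nes and Col4a2. Whether stromal and endothelial genes differ in their course was not tested, and stromal genes were not counted apart with lists of equal length.

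Per length of sequence, stromal genes held fewer peaks than all genes together in each of the 8 libraries, and endothelial genes in 4 of them. The windows of all listed genes covered 2.35 Mb and held between 5.97 peaks per Mb, in the second 0h library, and 11.9, in the first 12h library. All genes together held 9.88 to 13.9 peaks per Mb, the leukaemic genes 29.3 to 46.4, and the genes of neurons and hepatocytes 3.17 to 6.87. Endothelial genes were above all genes in the second 6h library, with 12.3 against 11.6 peaks per Mb, and in the first 12h library, with 14.1 against 13.9. They were also above in the first 24h library, with 13.2 against 10.01, and in the second, with 10.6 against 9.88. Stromal genes held 1.65 to 10.7. Each library had 14 to 28 peaks at the listed genes, which is 0.0895% to 0.138% of its list, and the 8 libraries had 171 in all.

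Peaks at these genes were weak. Fold enrichment depends on depth, so each peak was placed by its percentile within its own list. The median percentile of the peaks at the listed genes was 38.2 and 32.5 for 0h, 34.7 and 28.7 for 6h, 37.1 and 20.7 for 12h, and 25.3 and 17.6 for 24h. All 8 medians lay below the middle of their list, and peaks at all genes had medians between 53.4 and 54.2. Peaks at the leukaemic genes also had low medians, between 25.4 and 47.3, and those at genes of neurons and hepatocytes had 27.0 to 64.4. Averaged over the library medians, these lists had 34.0 and 47.0, and the listed genes 29.3. By this measure the leukaemic genes did not lie above the genes of foreign tissues. Peaks at stromal genes averaged 24.4 over the library medians and those at endothelial genes 37.3. The median pile-up at the listed genes was 8 to 12 tags, where the lists as a whole had 10 to 16.

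**Figure D2:**
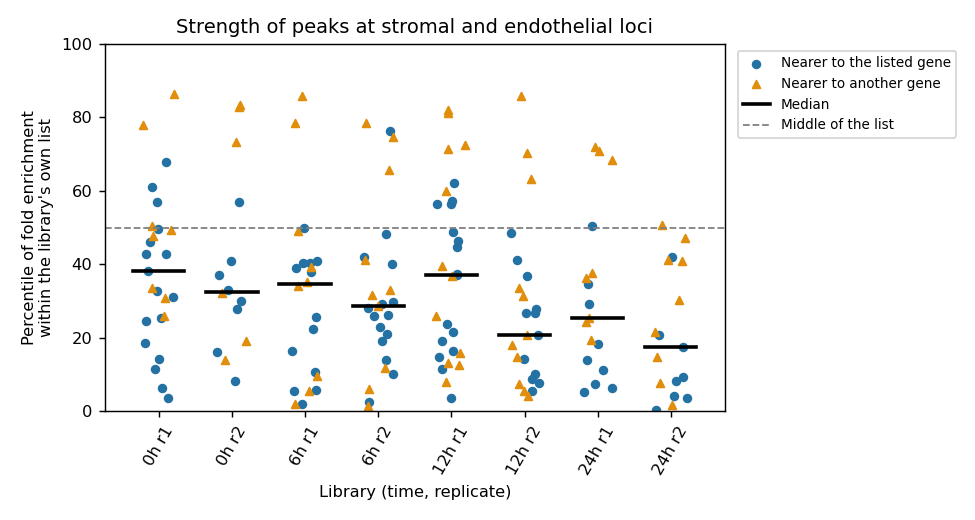
Percentile of fold enrichment within the library's own list (y axis) for each of the 171 peaks at stromal and endothelial loci, by library (x axis). Points are single peaks, bars are medians, and the dashed line is the middle of a list. All 8 medians, 17.6 to 38.2, lie below that line.

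Most of the 54 regions were called in few libraries. A single library accounted for 21 of them (38.9%, against 27.9% of all regions), and 8 were called in all 8 libraries (14.8%, against 28% of all regions). Peaks in the 21 single-library regions had 5 to 10 tags at the summit, where 5 is the weakest pile-up called in 7 of the lists. Peaks in the 8 constant regions had 7 to 52. Of the 25 stromal regions 1 was constant, and of the 29 endothelial regions 7.

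**Figure D3:**
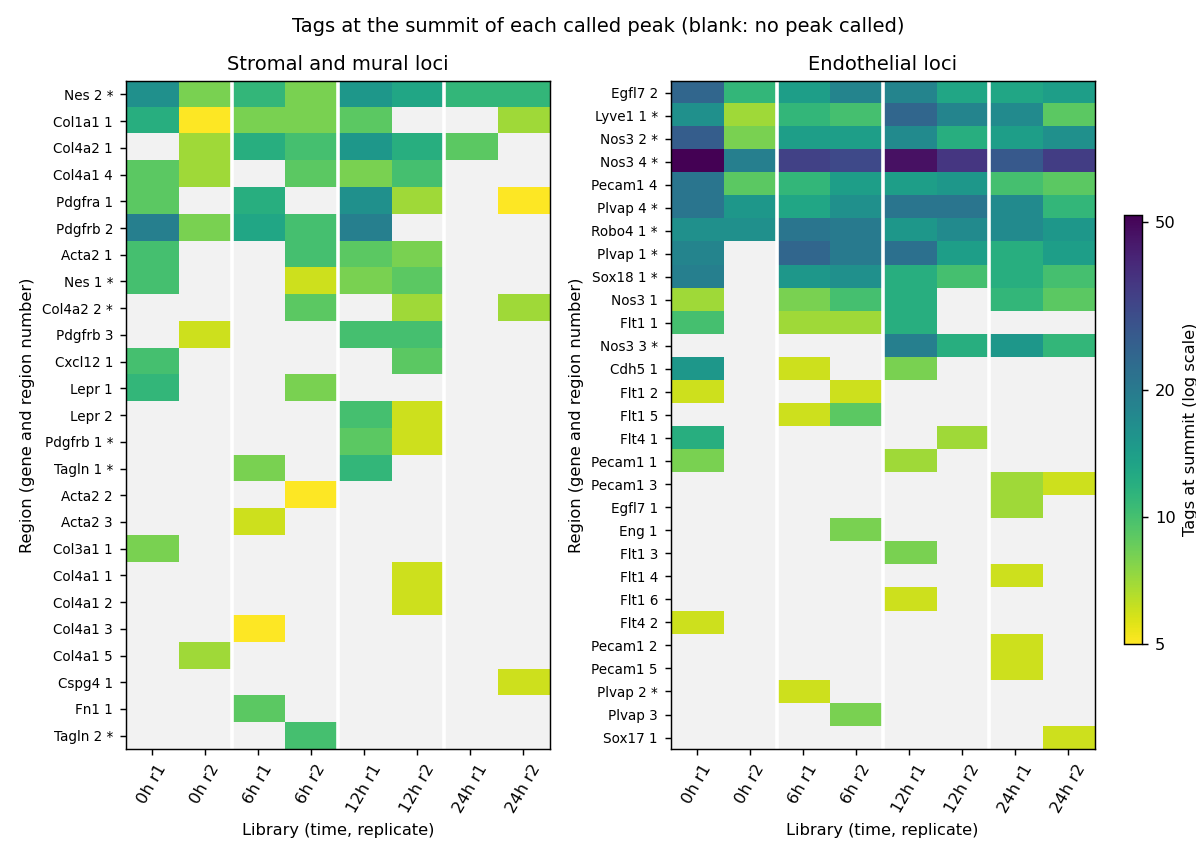
Tags at the summit of the peak (colour, log scale) for each of the 54 regions (rows, gene and region number along the chromosome) in each library (columns). Blank cells have no called peak, and an asterisk marks a region nearer to an end of another gene. The 8 regions called in every library are mostly endothelial and mostly carry an asterisk.

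Of the 8 constant regions, 6 lay nearer to an end of a neighbouring gene than to the listed gene, and over all 54 regions 15 did. The strongest was 722 bp from an end of Abcb8, a mitochondrial transporter gene, and 9.93 kb from Nos3, the endothelial nitric oxide synthase (chr5:24394194-24394843). It had 52 and 19 tags for 0h, 33 and 31 for 6h, 47 and 36 for 12h, and 27 and 34 for 24h. The shallow second 0h library was lowest, and the other 7 libraries held 27 or more. A second constant region at Nos3 (chr5:24383260-24383889) lay inside the gene, 892 bp from its end and 599 bp from an end of Atg9b, an autophagy gene. It had 26 and 8 tags for 0h, 14 and 14 for 6h, 17 and 12 for 12h, and 14 and 16 for 24h.

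At Lyve1, the hyaluronan receptor of lymphatic endothelium and some macrophages, the 1 region (chr7:110843998-110844514) covered the start of Rnf141, a ring-finger gene, 57 bp from its end and 6.21 kb from Lyve1. It had 16 and 7 tags for 0h, 11 and 10 for 6h, 24 and 18 for 12h, and 17 and 9 for 24h. Both 12h libraries were above all others, by 1 tag at the least. The region covers part of the Rnf141 sequence printed above, and no other peak was called at Lyve1. At a −log10 q of at least 5, Lyve1 no longer had a peak in all 8 libraries.

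At Plvap, the protein of endothelial fenestrae, a constant region (chr8:71521693-71521945) lay inside Ccdc194, 1.65 kb from its end and 9.96 kb from Plvap, with 21 and 15 tags for 0h, 13 and 16 for 6h, 21 and 21 for 12h, and 17 and 11 for 24h. Another (chr8:71488173-71488913) lay over the start of Gtpbp3, a gene of mitochondrial tRNA modification, and was called in 7 libraries, with 18 tags at 0h in the first library and none called in the second. It had 24 and 20 tags for 6h, 22 and 14 for 12h, and 12 and 14 for 24h. In tags both 24h libraries lay at or below the lowest 12h library, 14 tags. By percentile within the own list they lay above that library, with 36.3 and 41.3 against 31.3. Inside or next to Plvap itself, single peaks of 6 and 8 tags were called in the first and the second 6h library.

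At Robo4, an endothelial guidance receptor also known from blood stem cells, the constant region (chr9:37420685-37421429) lay inside Robo3, a related receptor gene, 4.85 kb from its end and 6.87 kb from Robo4. It had 16 and 16 tags for 0h, 21 and 20 for 6h, 15 and 17 for 12h, and 17 and 15 for 24h, so the 6h pair had the most tags. By percentile within its own list the shallow second 0h library was highest, with 82.8 against 78.5 and 74.7 for 6h. In tags this was the most even of the 8 regions, and the second 0h library was as high there as the first. Its percentiles ran from 49.5 to 82.8. At Nes, the intermediate filament of perivascular stroma, the constant region (chr3:87986873-87987942) was 456 bp from an end of Bcan, a brain proteoglycan gene, and 6.62 kb from Nes. It had 16 and 8 tags for 0h, 11 and 8 for 6h, 15 and 13 for 12h, and 11 and 11 for 24h. It was the 1 constant region among the stromal genes, and Nes no longer had a peak in all 8 libraries with lists of equal length or at a −log10 q of at least 5.

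The other 2 constant regions belonged to the listed genes. At Pecam1 (CD31), an adhesion molecule of endothelium, platelets and leukocytes, the region lay inside the gene, 26.7 kb from an end, with the nearest other gene end 62.1 kb away (chr11:106688157-106689336). It had 21 and 9 tags for 0h, 11 and 14 for 6h, 14 and 15 for 12h, and 10 and 9 for 24h. In tags the 24h pair lay below the 6h and 12h libraries and level with the shallow 0h library. By percentile within the own list the 24h pair lay below that library too, with 18.3 and 20.6 against 41.0. At Egfl7, a secreted vessel protein whose gene also carries the microRNA miR-126, the region (chr2:26586554-26587265) lay inside the gene. Its strongest summit was 236 bp past the third start. The region covers only the end of the Egfl7 sequence printed above, and this summit lies outside that sequence. The region had 24 and 11 tags for 0h, 14 and 18 for 6h, 18 and 13 for 12h, and 13 and 14 for 24h, and its libraries overlapped between all times. Pecam1 and Egfl7 belong to the 13 listed genes that are also known from blood cells. Of these 7 had a region (53.8%, against 68.8% of all genes with a peak in at least 1 library). A peak in all 8 libraries was found at 4 (30.8%, against 48.8% of all genes), Pecam1, Egfl7, Robo4 and Lyve1. At Robo4 and Lyve1 it lay nearer to a neighbouring gene.

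**Figure D4:**
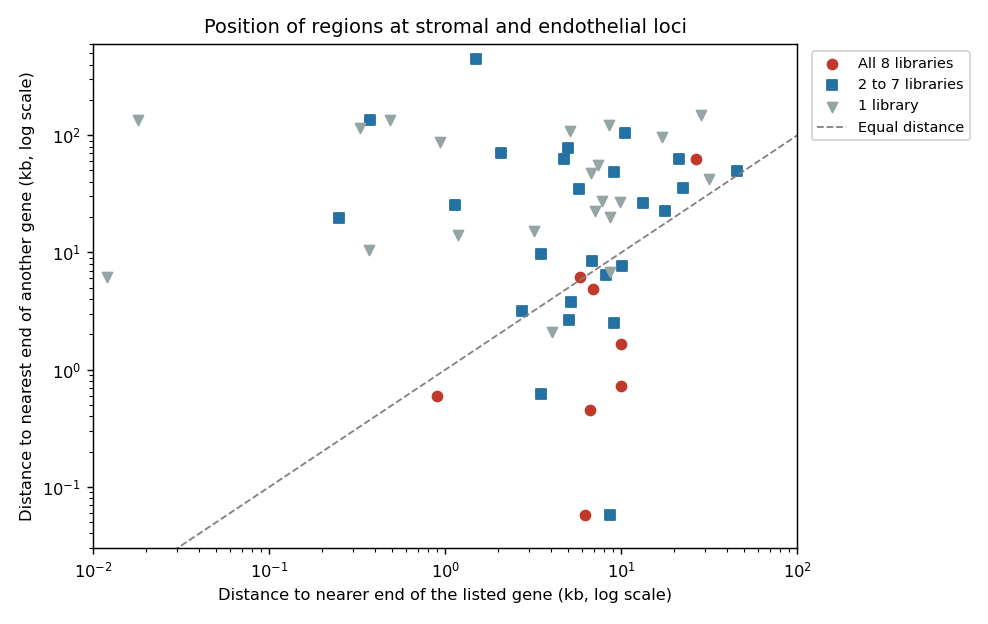
Distance from the strongest summit of each region to the nearer end of the listed gene (x axis, kb, log scale) and to the nearest end of another protein-coding gene (y axis, kb, log scale). Points below the dashed line are nearer to another gene, as are 6 of the 8 regions called in all libraries and 15 of 54 in all.

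A further 8 regions were called in 5 to 7 libraries, and 6 of them were nearer to the listed gene. Beside the Gtpbp3 start, the other region near a neighbour lay 57 bp from an end of Tcea2, an elongation factor gene, and 8.60 kb from Sox18, an endothelial transcription factor (chr2:181680017-181680669). It had 19 tags in the first 0h library, 15 and 16 for 6h, 12 and 10 for 12h, and 12 and 10 for 24h, with no peak in the second 0h library, so all 12h and 24h libraries lay below the 6h pair. Nos3 had a region 3.49 kb outside the gene (chr5:24360964-24361569) in 6 libraries, with 7 to 12 tags.

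Basement membrane and fibrillar collagens gave 3 of these regions. Col4a2, which encodes a chain of basement membrane collagen, had a region inside the gene (chr8:11403887-11404216), missing from the first 0h library and the second 24h library. It had 7 tags in the second 0h library, 12 and 10 at 6h, 15 and 12 at 12h, and 9 in the first 24h library. Its neighbour Col4a1 had one inside the gene (chr8:11208649-11209139) with 9 and 7 tags for 0h, 9 in the second 6h library, 8 and 10 for 12h, and no peak in the first 6h library or for 24h. Col1a1, the main collagen of bone, had a region 1.14 kb inside the gene (chr11:94936954-94937591). It had 12 and 5 tags at 0h, 8 and 8 at 6h, 9 in the first 12h library and 7 in the second 24h library.

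Receptors for platelet-derived growth factor, which mark mesenchymal and mural cells, gave the other 2. Pdgfrb had a region inside the gene, 2.72 kb from an end (chr18:61047670-61047964), with 19 and 8 tags for 0h, 13 and 10 for 6h, 19 in the first 12h library, and no peak in the second 12h library or for 24h. Pdgfra had one inside the gene (chr5:75155825-75156415) with 9 tags in the first 0h library, 12 in the first 6h library, 16 and 7 at 12h, and 5 in the second 24h library. At Pdgfra 3 of the 4 times had 1 library with a peak and 1 without.

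Against 0h, few of these regions changed by the rule that both libraries of 1 time and neither of the other have a peak. At 6h 1 of 54 was gained (1.85%, the same as the 1.85% of all regions), at the start of Flt1, a VEGF receptor, with 6 and 9 tags (chr5:147725997-147726306). Adjoining regions at the same start were called in the first 12h library and in the first 24h library, with 6 tags each, and neither 0h library had a peak within 1 kb of an end of the gene. The Flt1 region was not among the gained ones at a −log10 q of at least 5. There the 1 gained region of 34 (2.94%, against 1.79% of all regions) was at Nos3. At 6h 0 of 54 were lost, against 2.34% of all regions.

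At 12h 3 of 54 were gained (5.56%, against 4.03% of all regions) and 0 lost (against 1.45%). One lay inside Lepr, the leptin receptor that marks perivascular stroma (chr4:101721755-101722040), with 10 and 6 tags. Another lay 5.16 kb from Pdgfrb and nearer to Cdx1 (chr18:61039731-61040033), with 9 and 6 tags. The third lay inside Atg9b, 5.00 kb from Nos3 (chr5:24389204-24389565), with 19 and 12 tags at 12h and 15 and 11 at 24h, and no peak in any library of 0h or 6h. Its fold enrichment was low for its tags, 5.31 and 4.55 at 12h and 6.41 and 4.26 at 24h, and its percentile ran from 1.71 to 25.3. The second 0h library, with the lowest depth index, is 1 of the 4 libraries without a peak there.

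At 24h 2 of 54 were gained (3.70%, against 1.12% of all regions) and 2 lost (3.70%, against 4.43%). The gained ones were the Atg9b region near Nos3 and a region inside Pecam1, 21.3 kb from an end (chr11:106675204-106675519), with 7 and 6 tags. The lost ones were the regions inside Col4a1 and Pdgfrb described above, which had 9 and 7, and 19 and 8 tags at 0h. The Pdgfrb region was also without a peak in the second 12h library, and the Col4a1 region in the first 6h library. No test was made of these counts, since 2 libraries against 2 allow only 3 splits. With lists of equal length 1 of 38 regions was gained at 6h (2.63%, against 2.37% of all regions), at Nos3 and not at Flt1. At 12h 0 were then gained, against 2.69%. At 24h 3 were gained (7.89%, against 2.92%), of which 2 at Nos3 and 1 at Pecam1. The 1 region lost at 24h (2.63%, against 3.01%) was at Pdgfrb.

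Single libraries decided several of these counts, and leaving one out loosened the rule for all regions alike. Without the second 0h library, 13 of 53 regions (24.5%) were lost at 24h, against 21.5% of all regions, among them regions at Acta2, Cdh5, Col3a1, Cxcl12, Flt1, Flt4, Lepr and Nes. Without the first 0h library 4 of 52 (7.69%) were lost at 24h, against 10.2%. Of the same 52 regions 5 were gained at 6h (9.62%, against 8.4%), 8 at 12h (15.4%, against 13.7%) and 5 at 24h (9.62%, against 5.77%). Without the second 0h library, 5 of 53 were gained at 12h (9.43%, against 5.93%), and 2 at 6h (3.77%, against 2.92%). Leaving out either 6h library gave 6 of 50 gained at 6h (12%), against 7.52% of all regions without the first and 6.42% without the second. Leaving out either 12h library gave 6 of 52 gained at 12h (11.5%), against 10.3% and 13.5%. At 24h 5 of 50 (10%, against 4.03%) were gained when the first 24h library was left out, and 6 of 52 (11.5%, against 4.28%) when the second was.

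A further 4 genes were chosen for description after their values were seen. Flt4, the VEGF receptor of lymphatic endothelium, had a peak at its start in 2 libraries. It had 12 tags in the first 0h library and 7 in the second 12h library, where the peak began past the start. Cxcl12 had a region 1.5 kb from the gene in the same 2 libraries, with 10 and 9 tags. Cdh5, the cadherin of endothelial junctions, had a region 2.07 kb from the gene in the first libraries of 0h, 6h and 12h, with 15, 6 and 8 tags. Acta2, the actin of smooth muscle, had a region inside the gene in 4 libraries, with 10 tags in the first 0h library, 10 in the second 6h library, and 9 and 8 at 12h. None of these 4 regions had a peak at 24h, and they were chosen with that known. Over all 54 regions, 31 (57.4%, against 45.8% of all regions) had no peak at 24h. Conversely 7 (13.0%, against 2.32% of all regions) had a peak only at 24h, at Cspg4, Egfl7, Flt1, Sox17 and, with 3 regions, Pecam1. Apart from the Pecam1 region gained at 24h, each was called in 1 library only. All had 6 or 7 tags, near the weakest pile-up called, and the Flt1 one adjoins the region at its start called at 6h.

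The remaining listed genes had regions in 1 to 4 libraries or none. Tagln had 2 regions, both inside Sidt2, and Col3a1, Cspg4, Fn1, Eng and Sox17 had 1 region each, in 1 library. No peak was called in any library at 13 genes: the matrix and niche factor genes Col1a2, Lum, Dcn, Sparc, Kitl and Vcam1, and the endothelial genes Kdr, Tek, Tie1, Emcn, Esam, Cldn5 and Mmrn2. Of all genes 31.2% had no peak by this rule, and of the listed genes 34.2%. Niche genes were therefore about as often without a peak as any gene, while 18.4% of them, 7 of 38, had one in all 8 libraries against 48.8% of all genes. Those 7 were Egfl7, Lyve1, Nes, Nos3, Pecam1, Plvap and Robo4.

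The limit of 10 kb decided some of these counts. A region counted when the summit of at least 1 library met the limit, and 3 regions had summits on both sides of it. The Abcb8 region near Nos3 had its nearest summit 9.91 kb away and lay inside the limit in 5 of its 8 libraries. The Ccdc194 region near Plvap came to 9.96 kb and lay inside in 4 of 8, and a region near Nes came to 9.996 kb and lay inside in 2 of 4. The regions just outside lay 10.1 kb from Sox18, in 7 libraries, 10.4 kb from Esam, in 6, and 10.7 kb from Col4a1, in 1. Of the 54 regions 29 had their strongest summit inside the listed gene. With summits in the gene body alone, the genes with a peak in all 8 libraries were Egfl7, Nos3 and Pecam1.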

How the data were processed

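BWA, SAMtools and MACS2 were run on mm10, per the submitters' processing notes, without versions or settings. Each library has its own deposited list of peaks from the authors, and none is pooled. Each deposited peak has a fold enrichment, a linear ratio of pile-up to local background, with −log10 p-value and −log10 q-value, an integer score (not used) and the offset of the summit, all as deposited by the authors. Shifting of reads for the transposase and treatment of duplicates were not given in the sources used here.

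Members and gene lists were chosen with earlier results of these data known. Gene bodies and promoter sequences came from RefSeq (GRCm38.p6), with exact symbols. Tags at a summit were recovered from fold and p within 0.001 in −log10 p, and gave whole numbers for at least 99.8% of peaks of each list. Peaks were merged into regions at 1 bp of overlap. A region was gained when both later libraries and no 0h library held a peak, and lost in the reverse case. Distances were taken to the nearer gene end, since the gene table gives no strand. Named were genes with a region in all 8 libraries, a gained or lost region, or a region in 5 to 7 libraries. Wilson 95% intervals cover counting error only. Python 3.11.15, pandas 2.3.3 and scipy 1.17.1 were used, and the recovery of tags and the region calls were tested on simulated data. Alternatives were lists of equal length, a −log10 q of at least 5, merging at 50% overlap, gene bodies alone and leaving out each library.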

Additional observations from a re-analysis of the deposited data

How the results depend on the processing

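No paired analysis was possible because the results are counts of called peaks and come from no test. With peaks at a −log10 q of at least 5, 34 regions were left. Of these 1 each was gained at 6h, 12h and 24h (2.94%, against 1.79%, 4.79% and 1.29% of all regions). None was a region gained in the main count, which had 1, 3 and 2. The 12h gain lay inside Pdgfrb (chr18:61067373-61067571), where the peak of the second 0h library, −log10 q 4.58, fell below the cut. The 6h and 24h gains lay in the region outside Nos3 (chr5:24360964-24361569), where the peak of the first 0h library, 3.93, did so. Genes with a peak in all 8 libraries were then 5, without Lyve1 and Nes, and with lists of equal length 6, without Nes. With lists of equal length the genes with a peak at 12h averaged 10. Of 38 regions 0 were then gained at 12h (against 2.69% of all regions) and 1 was lost at 24h (2.63%, against 3.01%). With summits in the gene body alone, 9, 10.5, 10.5 and 6 genes had a peak at 0h, 6h, 12h and 24h. In all 8 libraries 3 genes had one. Of the 29 regions then left, 2 were nearer to another gene, and 1 each was gained at 12h (Lepr) and 24h (Pecam1). That is 3.45% each, against 4.03% and 1.12% of all regions. Merging at 50% overlap left all 13 values within 1.5 times or the spread between libraries.

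Leaving out each library in turn gave 11 to 19 genes with a peak at 0h, 17 to 18 at 6h, 16 to 18 at 12h and 10 to 13 at 24h. Genes with a peak in every library that remained, a looser rule than all 8, ranged from 7 to 8. Regions nearer to another gene ranged from 14 to 15, and the mean of the median fold percentiles from 28.1 to 31.0. Gained regions ranged from 1 to 6 at 6h, 3 to 8 at 12h and 2 to 6 at 24h. Lost regions ranged from 0 to 5 at 6h, 0 to 4 at 12h and 2 to 13 at 24h. The highest losses, 5, 4 and 13, all came without the second 0h library (9.43%, 7.55% and 24.5% of 53 regions, against 16.1%, 12.4% and 21.5% of all regions), whose shallow depth makes a missing peak least informative. The cause of these changes was not tested. By construction, fewer peaks remain with the stricter q cut, with lists of equal length and with a library left out.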

Other observations

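Other genes of the same niche cells, outside the 40 listed, were examined by the same rule. Of 20 further stromal genes, 11 and 6 had a peak for 0h, 9 and 9 for 6h, 9 and 8 for 12h, and 6 and 6 for 24h. In all 8 libraries 4 of them had one, against 48.8% of all genes. They were Adipoq, the adipokine of fat cells, Pdpn, Rgs5, a marker of pericytes, and Sp7, a transcription factor of osteoblasts. Within 1 kb of a gene end, Adipoq, Rgs5 and Sp7 had no peak in any library, and Pdpn had one in the first 0h library only. Whether the peaks at these 4 genes lie nearer to other genes was not examined. Regions gained against 0h numbered 2 for 6h (Ebf3 and Mmp2), 1 for 12h (Mmp2) and 0 for 24h, of 27, and 0 were lost at any time. Of all regions 1.85% were gained at 6h, 4.03% at 12h and 1.12% at 24h, and 2.34%, 1.45% and 4.43% were lost. Counts this small are given as a description.

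Of 20 further endothelial genes, 11 and 8 had a peak for 0h, 13 and 13 for 6h, 12 and 12 for 12h, and 7 and 9 for 24h. All 6h and 12h libraries lay above all 0h and 24h libraries, which was not tested. Over all genes the first 0h library had the highest share, 63.2%, with 58.9% to 63% in the 6h and 12h libraries and 56% to 56.5% in the other 3. In all 8 libraries 5 had one (25.0%, against 48.8% of all genes). They were Cd34, Ecscr, Efnb2, Erg and Stab1, of which Cd34 and Erg are also known from blood stem cells and Stab1 from macrophages. Whether their peaks lie nearer to other genes was not examined. Of 38 regions 4 were gained for 6h (at Cd93, Erg, Podxl and She), 3 for 12h (Cd93, Podxl and Vwf) and 1 for 24h (Erg). Regions lost numbered 0 for 6h, 1 for 12h (Vwf) and 2 for 24h (Stab2 and Vwf). Over all regions 1.85%, 4.03% and 1.12% were gained at 6h, 12h and 24h, and 2.34%, 1.45% and 4.43% lost.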
